A study of Caenorhabditis elegans with 2 samples.

Results

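The gene pqn-41 of Caenorhabditis elegans was examined for binding of BLMP-1, a zinc finger transcription factor. Its members are all regions in 4 deposited ChIP-seq peak lists whose summit, the position of highest signal, lay in the gene or within 5000 bp upstream of its start. They numbered 5 of 843 peaks in the list the authors filtered by irreproducible discovery rate (IDR, a measure of how well replicates agree on a peak), 19 of 30000 candidate regions in the pooled list, 20 of 30000 in replicate 1 and 19 of 30000 in replicate 2. The gene was chosen on its number of IDR peaks, so that number and the strength of those peaks are descriptions, and no test is given for them. The study measured 1 group of 2 biological replicates. These were whole embryos of mixed stage and pooled males and females of strain OP109, which carries unc-119(ed3) III and the integrated transgene wgIs109 with eGFP-tagged blmp-1. Signal came from all cells of the embryos together, so how many cells, and which, were bound cannot be told apart. There was no second condition, and sequencing depth is unknown because the lists give no numbers of reads.

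BLMP-1 is the worm homologue of vertebrate PRDM1 and takes part in epidermal development and in the timing of larval events. The protein PQN-41 is named for a domain rich in glutamine and asparagine. In males it is needed for the death of the linker cell, which leads the growth of the gonad and then dies in a way that differs from apoptosis. That death takes place at the end of larval life, while the animals measured here were embryos.

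The gene lies at chrIII:1905958-1939570 (build ce11, + strand), spans 33.6 kb and has 6 annotated transcripts. Transcripts a.1 and b.1 run over its whole length, and c.1 shares their beginning and stops early. Transcripts d.1, d.2 and d.3 begin inside the gene, at 1919571, 1927671 and 1927675. Translated from the annotated coding bases, the longest product had 2049 residues, of which 13.0% were glutamine, against a median of 3.66% over the longest products of 19972 nuclear protein-coding genes. In 130 of those genes the share was higher. The 3 d transcripts code for the same 427 residues, of which 35.4% were glutamine. The longest product of none of the 19972 genes had a higher share, though their shorter products were not compared. Asparagine made up less of PQN-41, with 4.20% of its longest product and 2.11% of the product of the d transcripts.

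The 5 IDR peaks lay in 1 intron, of 10.4 kb, between the part of the gene that only the long transcripts hold and an exon that all 6 transcripts hold in whole or in part. They are numbered 1 to 5 in the direction of transcription. The windows below show 100 bp on each side of each summit, since the sequence at the peaks was not used to choose the gene. They are read from the RefSeq genome WBcel235, the same assembly as ce11, 5′ to 3′ on the + strand. Capitals mark every copy, on either strand, of 3 words. They are the repeat GAGAGA, then AGTGAAA, which is the core word AAGTGAAA of BLMP-1 without its first letter, and TCGTGNTCTCT, a word that 4 of the windows share.
Peak 1, chrIII:1921459-1921659: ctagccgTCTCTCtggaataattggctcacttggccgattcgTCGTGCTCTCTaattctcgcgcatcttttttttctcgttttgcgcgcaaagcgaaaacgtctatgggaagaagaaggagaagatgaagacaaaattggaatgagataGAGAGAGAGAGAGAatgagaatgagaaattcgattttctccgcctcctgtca
Peak 2, chrIII:1923643-1923843: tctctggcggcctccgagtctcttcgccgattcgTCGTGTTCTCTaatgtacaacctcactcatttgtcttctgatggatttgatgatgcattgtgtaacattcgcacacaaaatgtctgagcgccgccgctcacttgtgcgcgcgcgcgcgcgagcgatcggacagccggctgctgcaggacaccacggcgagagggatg
Peak 3, chrIII:1924013-1924213: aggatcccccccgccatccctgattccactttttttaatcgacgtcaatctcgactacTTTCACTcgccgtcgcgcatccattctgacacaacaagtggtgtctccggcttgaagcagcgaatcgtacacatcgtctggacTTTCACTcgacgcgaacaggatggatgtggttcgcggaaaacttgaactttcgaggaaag
Peak 4, chrIII:1925209-1925409: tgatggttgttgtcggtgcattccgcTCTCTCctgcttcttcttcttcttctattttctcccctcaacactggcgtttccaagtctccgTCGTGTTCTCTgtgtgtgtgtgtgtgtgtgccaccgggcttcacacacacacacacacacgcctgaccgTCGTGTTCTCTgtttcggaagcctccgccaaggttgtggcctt
Peak 5, chrIII:1926500-1926700: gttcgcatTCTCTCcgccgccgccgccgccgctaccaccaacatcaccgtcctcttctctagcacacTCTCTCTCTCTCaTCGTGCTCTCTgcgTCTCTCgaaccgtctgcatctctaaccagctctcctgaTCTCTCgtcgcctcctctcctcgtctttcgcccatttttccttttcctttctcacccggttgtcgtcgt

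The IDR summits stood well away from the first start of the gene and upstream of the internal starts of d.2 and d.3. From the start of d.2 they were 6112, 3928, 3558, 2362 and 1071 bp upstream, for peaks 1 to 5. From the first start of the gene they were 15601 to 20642 bp downstream. Transcript d.1 starts before all of them, with peak 1 at 1988 bp and peak 5 at 7029 bp downstream of its start, and the summits lay in its first intron of 7.78 kb. None lay in an exon of any transcript. From peak 1 to peak 5 the summits spanned 5041 bp, with 2184, 370, 1196 and 1291 bp between neighbours. With only the outermost start of each protein-coding gene counted, the nearest to peaks 1 to 3 was that of pqn-41 itself. For peaks 4 and 5 it was that of F53A3.1, at 18328 and 17037 bp. The internal starts of pqn-41, which this count leaves out, were nearer to all 5 summits. Other kinds of gene also lie in the body. The snoRNA gene B0524.10, at 1918532 to 1918708, is in the same 10.4 kb intron, before peak 1. The ncRNA gene F53A3.8 and a pseudogene lie beyond that intron.

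The group stood alone on this stretch of chromosome III. The next IDR summits were 302 kb to the left of peak 1, at 1619137, and 475 kb to the right of peak 5, at 2401691. Between consecutive nuclear IDR summits the median distance was 70.9 kb over 812 pairs of neighbours, and 70 of these distances were at least as wide as the left one and 26 at least as wide as the right one. Over the intron the IDR summits came to 0.482 per kb, against 0.00816 per kb over the nuclear genome. The gene was chosen for its IDR peaks and the intron for holding them, so this contrast follows from the choice and is a description.

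**Figure D1:**
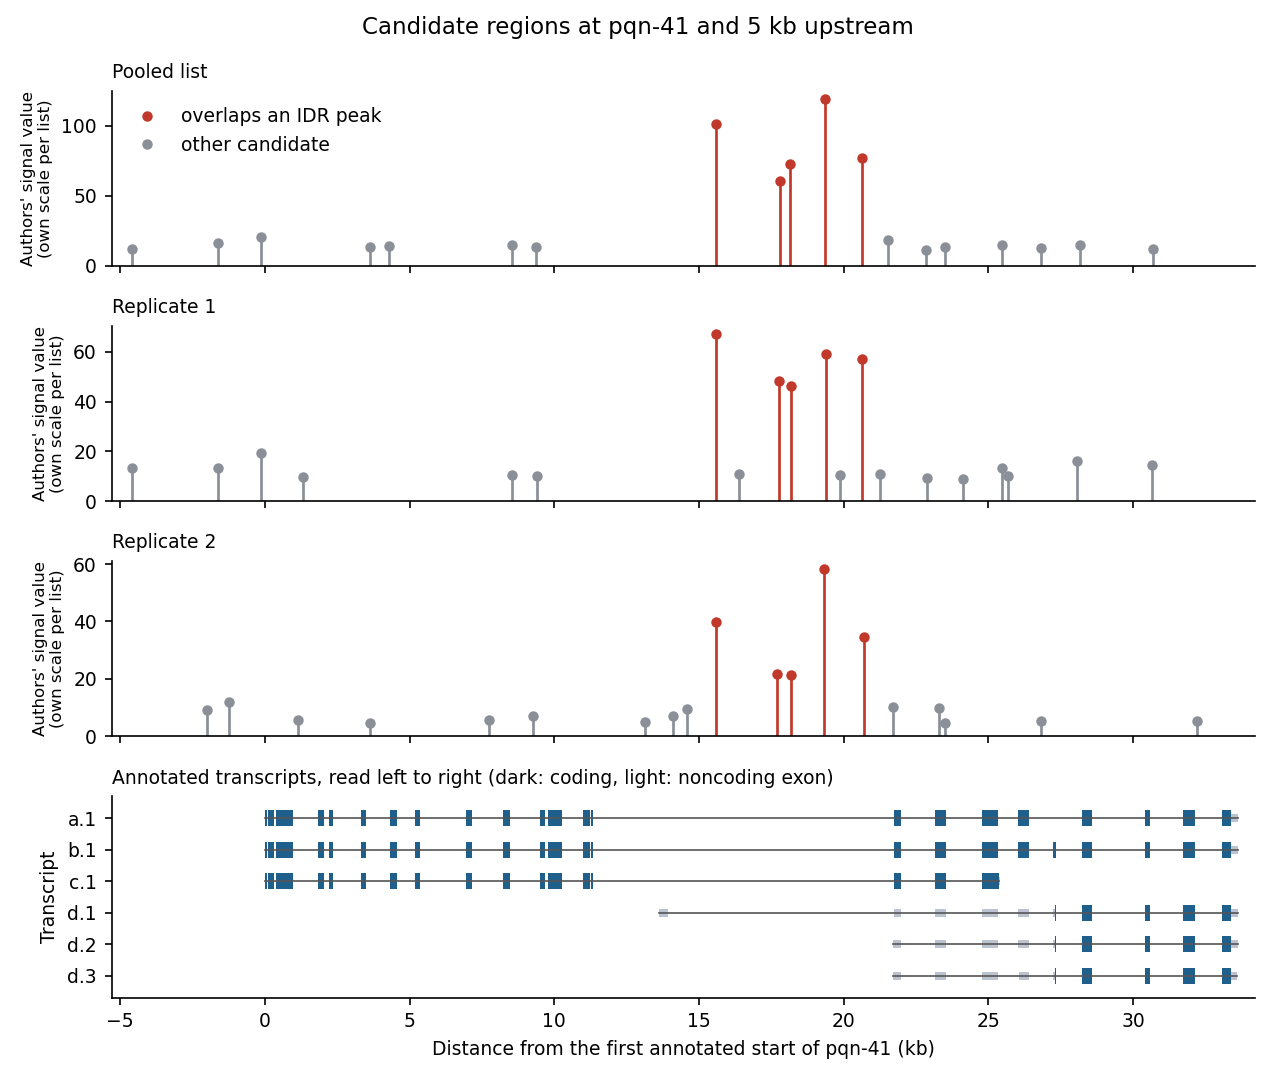
Signal value of each candidate region in the pooled list and in each replicate, each on its own scale (y axis), against the distance of its summit from the first annotated start of pqn-41 in kb (x axis), above the 6 transcripts. Regions that overlap an IDR peak (red) stand together in 1 intron, 15601 to 20642 bp from the start in the IDR list, while the other candidates (grey) are low throughout.

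Peaks 1 and 4 were the strongest and peaks 2 and 3 the weakest in the pooled list and in both replicates. Signal values are the authors' score per region, on a scale the files do not state, so they are set side by side within a list only. Ranks run from 1, the strongest, to 30000. Peak 1, at chrIII:1921401-1921716, had a signal value of 101 in the pooled list (rank 167), 67.1 in replicate 1 (rank 161) and 39.9 in replicate 2 (rank 183). Its place was thus nearly the same in the 3 lists.
Peak 2, at chrIII:1923585-1923900, had 60.8 in the pooled list (rank 489), 48.3 in replicate 1 (rank 321) and 21.7 in replicate 2 (rank 819). Peak 3, at chrIII:1924083-1924164, had 72.5 (rank 335), 46.2 (rank 352) and 21.2 (rank 873) in the same lists. Both stood lower in replicate 2 than in replicate 1. At 82 bp, peak 3 is also narrow, since 681 of the 818 nuclear IDR peaks, the other 4 here included, were 316 bp wide.
Peak 4, at chrIII:1925151-1925466, had 119 (rank 122), 59.2 (rank 205) and 58.2 (rank 84). Peak 5, at chrIII:1926442-1926757, had 76.7 (rank 295), 57.0 (rank 227) and 34.5 (rank 256). Replicate 1 placed peak 1 above peak 4, while replicate 2 and the pooled list placed peak 4 first. The IDR list carries the pooled values. Over all 843 IDR peaks the median signal was 65.5 and the lowest 46.1, so that 4 of the 5 stood above the median.

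Each of the 5 peaks had 1 overlapping candidate in each replicate. The replicates' summits lay within 37 bp of the IDR summit in replicate 1. In replicate 2 the largest shift was at peak 2, with the summit at 1923643 against 1923743 in the IDR list. Of the 5, all were among the 843 strongest regions of replicate 1 and 4 among the 843 strongest of replicate 2, so that 4 were among the strongest of both. Peak 3 just missed in replicate 2, at signal 21.2 where the 843rd region had 21.5. Over all 818 nuclear IDR peaks, 406 (49.6%) were among the strongest of both. The replicate lists went into the making of the IDR list, so this is no independent support.

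**Figure D2:**
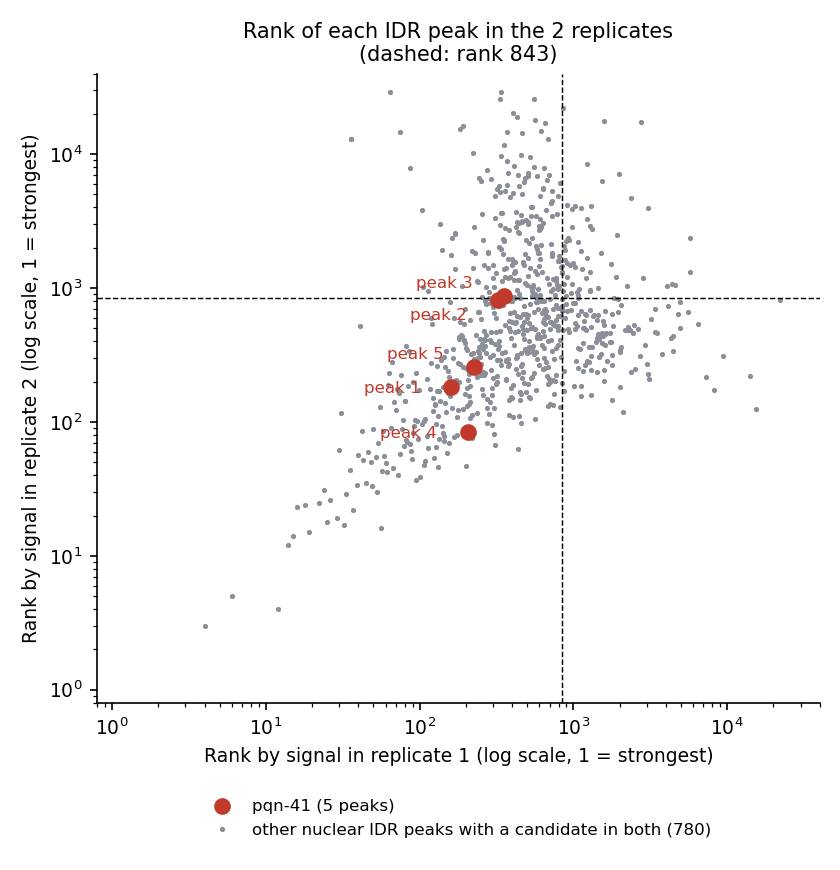
Rank by signal in replicate 1 (x axis) and replicate 2 (y axis), both on log scales with 1 the strongest, for the 5 peaks of pqn-41 (red) and the other nuclear IDR peaks that both replicates' candidates overlap (grey), with rank 843 dashed. Peaks 1, 4 and 5 stood at rank 256 or better in both replicates, while peaks 2 and 3 stood near rank 843 in replicate 2.

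Outside the 5 peaks the gene and its upstream region held low candidates only. In the pooled list 5 of the 19 candidates were in the IDR list, beside 2.81% of all 30000, a share that reflects how the gene was chosen. The other 14 had signal values of 11.5 to 20.3 with a median of 14.1, against a median of 16.2 over the whole list, and the best of them ranked 8130. There was thus a gap between 60.8, the lowest value inside the IDR list, and 20.3, the highest outside it. By place, 10 of the 14 lay in introns, 1 in a coding exon and 3 upstream.

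The first start of the gene had no IDR peak. The candidate nearest to it had its summit at 1905826, 132 bp upstream, between pqn-41 and the gene B0524.6, which starts 318 bp away on the other strand. Its signal was 20.3 in the pooled list and 19.5 in replicate 1 (rank 2916), and no region of replicate 2 had its summit between the 2 starts. At the internal start of d.2 a pooled candidate of signal 18.8 (rank 10067) had its summit 170 bp upstream. Replicate 2 had a region there of signal 10.3 (rank 7234), with its summit 29 bp upstream. The nearest region of replicate 1 had its summit 472 bp upstream (signal 10.7, rank 16747) and did not overlap that of replicate 2.
Of the 15 regions of replicate 1 that overlap no IDR peak, 2 overlapped a region of replicate 2, and none was among the 843 strongest. In replicate 2 the same held for 2 of 14. The best of the 14 ranked 5039 and overlapped no region of replicate 1, while the 2 that did overlap one ranked 16263 and 24273. The weak candidates were thus mostly not shared. At the edges of the 5000 bp window, the first pooled candidate inside had its summit at 1901378 (signal 12.3) and the last outside at 1894440 (signal 14.9). On the other side the last inside was at 1936630 (signal 12.2) and the first beyond the gene at 1943266 (signal 15.7).

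No other nuclear protein-coding gene held as many IDR summits in its body. Of 19973 genes, 237 (1.19%) had any, of which 211 had 1, 19 had 2, 4 had 3, 2 had 4 and pqn-41 had 5. With whole regions counted in place of summits, kin-20 also had 5. With the 843 strongest regions of replicate 1 alone in place of the IDR list, pqn-41 had 5, dpy-20 had 7, and unc-4 and lin-15B had 5. With those of replicate 2 alone pqn-41 had 4 and no other gene had as many.

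The gene is also long, and only 34 of the 19973 genes are longer. Of those 34, 11 had an IDR summit and none more than 2. Per kb of gene body pqn-41 had 0.149 IDR summits, which placed it 126th of the 237 genes, beside their median of 0.157. Among the 26 genes with 2 or more summits it was 18th, with a median of 0.197. The body held 16 pooled candidates, and 29.4% of the longer genes held at least as many.

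The genes most like pqn-41, by the number of IDR summits in the body and then by their summed signal, were kin-20, dpy-20, unc-4, miz-1 and sem-2. In the gene kin-20, which encodes a casein kinase 1 homologue, 4 IDR summits lay in 9.16 kb (0.437 per kb), with signals of 51.1 to 254. All 4 had a candidate in both replicates and 3 were among the strongest of both.
In dpy-20, a gene needed for normal body shape, 4 summits lay in 4.42 kb (0.904 per kb), and in unc-4, a homeobox gene, 3 lay in 2.63 kb (1.14 per kb). In replicate 1 all of these had a candidate, while in replicate 2 only 1 of the 4 at dpy-20 and none of the 3 at unc-4 did. At miz-1 the 3 summits had candidates in both replicates but none among the strongest of replicate 2. At sem-2, a SOX gene, 1 of 3 was among the strongest of both.
Stretches with at least 5 nuclear IDR summits within 5041 bp, counted from each summit, lay at 4 loci: pqn-41, kin-20, unc-4 and dpy-20. The 5041 bp are the span of the summits at pqn-41 itself, so its own place among these loci was fixed by that choice. At unc-4 the fullest such stretch held 6 summits. At pqn-41 and at kin-20, all 5 summits had a candidate in both replicates and 4 were among the strongest of both. At unc-4 and dpy-20 none was among the strongest of both.

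**Figure D3:**
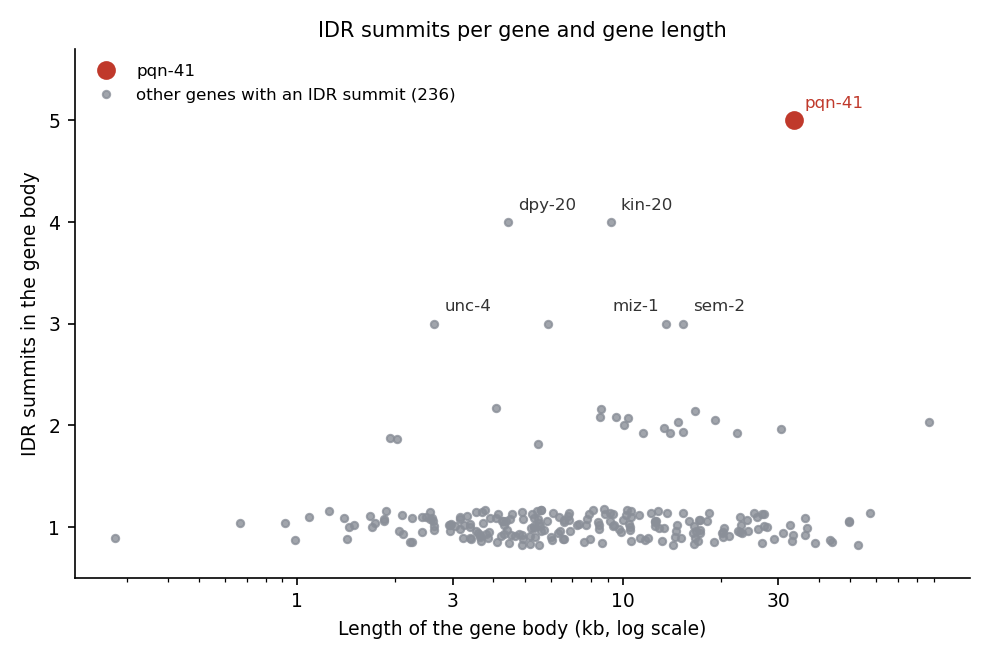
Number of IDR summits in the gene body (y axis) against gene length in kb (x axis, log scale) for pqn-41 (red) and the 236 other nuclear protein-coding genes with an IDR summit (grey, spread vertically at 1 and 2 so that points can be seen). Only pqn-41 stands at 5, and it is also longer than nearly all of the others.

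The BLMP-1 core AAGTGAAA was at none of the 5 summits. Searched on both strands and wholly within 50 bp, it was at 0 of 5, while it was at 15.5% of all 818 nuclear IDR summits and 1.85% of 29091 other nuclear pooled candidates. None of the windows of 100 or 150 bp on each side held it either. The whole gene body held 2 copies, neither in the intron, and the copy nearest to an IDR summit was 4100 bp away. The core without its first letter, AGTGAAA, stood at peak 3 alone, as 1 of 5 summits. It was at 22.1% of nuclear IDR summits and 4.04% of the other candidates. Most nuclear IDR summits lack either word, so 0 and 1 of 5 do not set these peaks apart from IDR peaks as a whole. Peak 3 had 2 copies of AGTGAAA, both on the - strand, with their leftmost base on the + strand at -42 and 41 bp from the summit.

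The repeat GAGAGA was dense in the intron, and 1 of the 5 summits had it within 50 bp. Counting overlapping copies on both strands, the intron held 35 of the 40 copies in the gene body. This is 3.37 per kb, against 0.215 per kb in the rest of the body and 0.752 per kb over the nuclear genome. For AGTGAAA the same 3 values were 0.578, 1.08 and 0.365 per kb. A run of GAGAGA counts as several copies, and the intron was chosen for holding the IDR peaks, so its density is a description. The summit with GAGAGA within 50 bp was peak 5, beside 30.6% of nuclear IDR summits and 2037 of the 29091 other candidates. Within 100 bp it was at 3 of the 5, peaks 1, 4 and 5, beside 43.2% of nuclear IDR summits and 12.8% of the other candidates. Peaks 2 and 3 had none within 150 bp. With replicate 2's own strongest regions, 2 of its 4 summits in the gene had it within 50 bp.

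Beyond these words, 4 of the 5 windows shared TCGTGNTCTCT, where N is any base. It was the longest word with at most 1 unknown letter that at least 4 of the windows held, so it was chosen for being shared, and its counts are a description. The gene body held 6 copies, all in the intron and all on the + strand. With their first base counted from the nearest summit they stood at -58 (peak 1), -66 (peak 2), -11, 58 and 114 (peak 4) and -20 bp (peak 5), and peak 3 had none. The nuclear genome held 190 copies on both strands. Within 100 bp of the summit the word was at 7 of 818 nuclear IDR peaks (0.856%), of which 4 are those of pqn-41, and at 16 of 29091 other candidates (0.0550%). The windows of peaks 1 and 2 also shared a run of 14 letters, gccgattcgtcgtg, which occurs 2 times in the nuclear genome. Those of peaks 2 and 4 shared 13 letters, cgtcgtgttctct, which occurs 8 times. No word of 8 letters without an unknown one was in 3 or more of the windows.

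The 5 peaks differed among themselves in base composition. The G+C content within 50 bp of the summits was 39.6% at peak 1, 51.5% at peak 2, 52.5% at peak 3, 54.5% at peak 4 and 55.4% at peak 5. The median was 43.6% over nuclear IDR summits and 31.7% over the other candidates. Peaks 2 to 5 thus lay above the IDR median and peak 1 below it. Of the bases within 100 bp, the RefSeq genome marks 49.8% as repeat-like or of low complexity at peak 1, 41.8% at peak 4 and 48.8% at peak 5, but 0% at peak 2 and 8.46% at peak 3, beside a median of 17.9% over nuclear IDR summits and 38.3% over the other candidates.

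**Figure D4:**
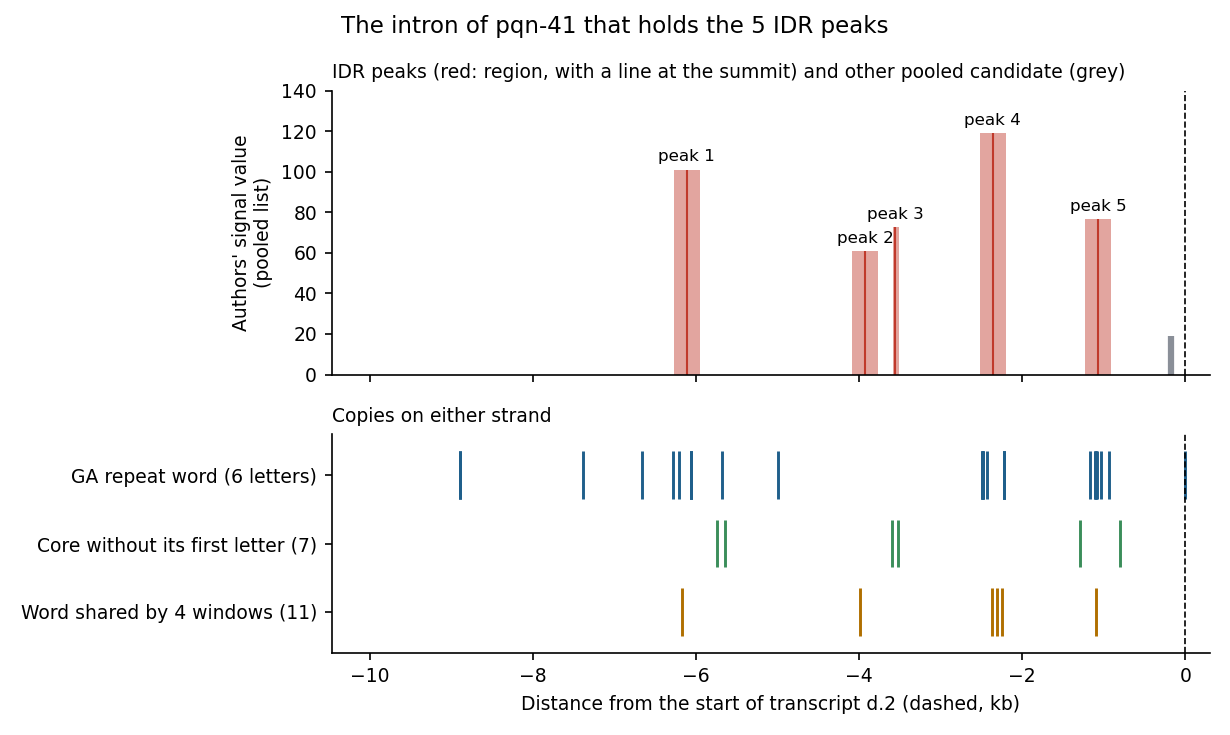
The intron of pqn-41 that holds the 5 IDR peaks, with the distance from the start of transcript d.2 in kb on the x axis. The upper panel shows the regions of the IDR peaks at the height of their signal value (red) and the 1 other pooled candidate (grey), and the lower panel marks copies of the GA repeat word, of the core without its first letter and of the word that 4 windows share. Copies of the shared word stand beside peaks 1, 2, 4 and 5, and those of the GA repeat word crowd at peaks 1, 4 and 5.

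Other genes are also known to act in the death of the linker cell or in its clearance. Of 15 such genes 14 were matched by symbol, btbd-2 being the one that was not. Of the 14, 3 (21.4%) had an IDR summit in the body or within 5000 bp upstream, beside 6.22% of all 19973 genes. A peak counted for every gene whose window held it, and the difference, which rests on 3 genes, was not tested. Each of these summits was upstream of its gene. The gene rbx-1, for a RING protein of cullin ubiquitin ligases, had 2, the stronger with signal 120 at 459 bp upstream (rank 82 in replicate 1 and 369 in replicate 2).
The gene let-70, for a ubiquitin-conjugating enzyme, had 1 of signal 68.6 at 802 bp upstream (ranks 287 and 779). The gene sek-1, for a MAP kinase kinase, had 1 of signal 48.3 at 1831 bp upstream, which ranked 562 in replicate 1 and 17890 in replicate 2. The strongest candidates of tir-1 (signal 43.9) and siah-1 (43.2) ranked 931 and 972 in the pooled list, outside the IDR list. At lin-29, for a zinc finger factor of the timing pathway that this death depends on, the strongest of 13 candidates had signal 27.2 (rank 3184).

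The other pqn genes share with pqn-41 a class name given for protein composition. Of 55, 3 (5.45%) had an IDR summit in the body or within 5000 bp upstream, beside the same 6.22% of all genes, and in none was it in the body. The 3 were pqn-51 (signal 136, 37 bp upstream), pqn-21 (70.1, 1688 bp upstream) and pqn-71 (53.8, 1098 bp upstream). The peak at pqn-51 ranked 199 in replicate 1 and 47 in replicate 2, while that at pqn-71 was outside the 843 strongest of each, at ranks 927 and 2348. With replicate 2's own strongest regions the count was 5.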

How the data were processed

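ChIP-seq of eGFP-tagged BLMP-1 in whole mixed-stage embryos was available as narrowPeak lists on build ce11 for 1 group of 2 biological replicates. Per the labels, the fragment size range was 150 to 350 bp. The deposited lists are the optimal IDR list, the pooled candidates and each replicate's candidates; per the deposited file records, candidates were called against 1 control file, and the IDR list derives from the other 3. The sources used here do not give the peak caller, the aligner or the IDR threshold. The deposited signal value is a score of unstated scale. The other deposited strength column is -log10 q by the narrowPeak convention, with a ceiling shared by 367 regions of replicate 1 and 1453 of replicate 2. The deposited summit offset is in bp. Depth is unknown, and the ce10 lists were not used.

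Summits were placed on WBcel235 with the Ensembl release 115 annotation (Python 3.11.15, pandas 2.3.3, Biopython 1.88). A replicate's region matched a peak when they overlapped by at least 1 bp, and the 843 strongest regions of a replicate, as many as the IDR list holds, were called its strongest. Counting of summits in genes and the word search were tested on simulated data. No significance test was run. The gene, the lists and the words were chosen with earlier results of these data known. Named genes are those of the lists with an IDR summit, lin-29, the neighbours of the gene and the 5 other genes with the most IDR summits; lin-15B, tir-1, siah-1 and btbd-2 were named after their values or absence were seen. Alternatives covered the stronger part of the IDR list, each replicate alone, other overlaps, windows, words and ranking.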

Additional observations from a re-analysis of the deposited data

How the results depend on the processing

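Over 9 results, 35 of 42 alternatives gave a count within 1.5 times that reported; the others follow. The number of genes with at least as many IDR summits as pqn-41, itself included, was 1, and became 2 with whole regions counted and 1 to 4 with 1 replicate left out. The core was at 0 of the 5 summits, and at 1 with the word of 7 letters. GAGAGA was at 1 summit, at 3 within 100 bp, at 3 within 150 bp, and at 1 to 2 with 1 replicate left out. The other pqn genes with an IDR summit numbered 3, and 2 to 5 with 1 replicate left out. The causes were not tested. With the stronger 422 IDR peaks pqn-41 kept 4. Ranked by -log10 q, all 5 peaks were at the ceiling of both replicates, tied with the regions that share it. No paired analysis was possible because the study has 1 group. With 2 replicates and no read counts, signal values carry no error.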
